A study of Homo sapiens with 12 samples.

Results

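The entries hsa-miR-33a and hsa-miR-33b*, given below without the species prefix, were chosen by name, as microRNAs of the SREBF introns that the study links to MYC, and are 2 of the 851 human microRNA names on the array. The cells were SUM159, a human triple-negative breast cancer line. Dicer shRNA cells had been stably infected with a pLKO.1 lentiviral vector carrying an shRNA against Dicer, and control shRNA cells with a scrambled shRNA in the same vector. Each line was grown in medium with serum, insulin and hydrocortisone and received metformin, a drug against type 2 diabetes, at 0.5 mM, or vehicle (PBS), for 24 h. The 12 samples form 4 groups of 3 biological replicates, which are Dicer shRNA with metformin, control shRNA with metformin, Dicer shRNA with vehicle and control shRNA with vehicle. Total RNA of each sample was hybridised to a 1-colour Agilent microRNA array. The labelling protocol given for these samples names a kit that makes cRNA from mRNA, and whether it was the one used on these arrays is not settled here. Whether either line was a clone is not given in the sources used here, and the level of Dicer could not be checked on these arrays, which measure microRNAs only.

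miR-33a and miR-33b are microRNAs that lie in introns of SREBF2 and SREBF1, the genes of the sterol regulatory element-binding proteins, and are made together with their host transcripts. Their mature guide strands are best known for repressing ABCA1, the cholesterol exporter, and genes of fatty acid oxidation. Drosha cuts the hairpin from the intron and Dicer then cuts the hairpin to a duplex of a guide strand and a passenger strand. Older names mark the passenger strand with an asterisk.

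The mature sequences are shown because the 2 entries carry 1 set of values on these arrays although they name different RNAs. Both were matched to RefSeq sequences on GRCh38.p14, and the partner arms of the 2 hairpins are given for comparison. Sequences run 5′ to 3′ and capitals mark the seed, bases 2 to 8, which pairs with target mRNAs.
miR-33a: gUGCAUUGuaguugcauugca
miR-33b*: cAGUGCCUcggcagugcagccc
miR-33b: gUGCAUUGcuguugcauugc
miR-33a*: cAAUGUUUccacagugcaucac

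miR-33a (RefSeq miR-33a-5p) lies at chr22:41900949-41900969 on the plus strand, inside the span of SREBF2, which is transcribed from the same strand. miR-33b* (RefSeq miR-33b-3p) lies at chr17:17813857-17813878 on the minus strand, inside the span of SREBF1, again on the host's strand. miR-33a and miR-33b share their seed with no other mature human sequence in the RefSeq table, and over the 20 positions compared from the 5′ end they differ by U9C and A10U (miR-33a base first, positions counted from 1 at the 5′ end). miR-33a and miR-33b* share no seed, match at 5 of 21 positions from the 5′ end, and have at most 5 bases in a row in common. Their GC contents are 42.9% for miR-33a and 72.7% for miR-33b*. The seed of miR-33b* is shared with miR-515-3p and miR-519e-3p.

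The deposited total gene signal, a linear intensity summed for each name, was the same for miR-33a and miR-33b* on 12 of 12 arrays, and so were its stated error, the detection flag and the value in the series matrix. Of the 290 names detected on at least 1 array, these were the only 2 with identical signal and error on all 12 arrays. Within single arrays, a detected signal occurred under more than 1 name in 5 cases, all of them this pair. Which of the 2 RNAs gave the signal cannot be read from the files, so every value below belongs to the pair. The other arms, miR-33b and miR-33a*, were detected on 0 of 12 arrays and hold the 0.1 that the files give to names that were not detected. miR-33b, which differs from miR-33a at 2 of 20 positions, was thus never called on an array where the miR-33a entry was.

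On the arrays of Dicer shRNA cells with metformin the signal was 0.1 (not detected) in replicates 1 and 2 and 4.55 ± 0.973 (stated error) in replicate 3. In control shRNA cells with metformin it was 7.15 ± 1.14, 6.20 ± 1.02 and 9.93 ± 1.29 in replicates 1 to 3. In Dicer shRNA cells with vehicle it was 0.1 in replicates 1 and 2 and 3.35 ± 0.759 in replicate 3. In control shRNA cells with vehicle it was 0.1 in all 3 replicates. The entry was therefore detected on 5 of 12 arrays, all 3 of control shRNA cells with metformin and replicate 3 of each Dicer shRNA group, and the control shRNA metformin values lay above every other value.

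**Figure D1:**
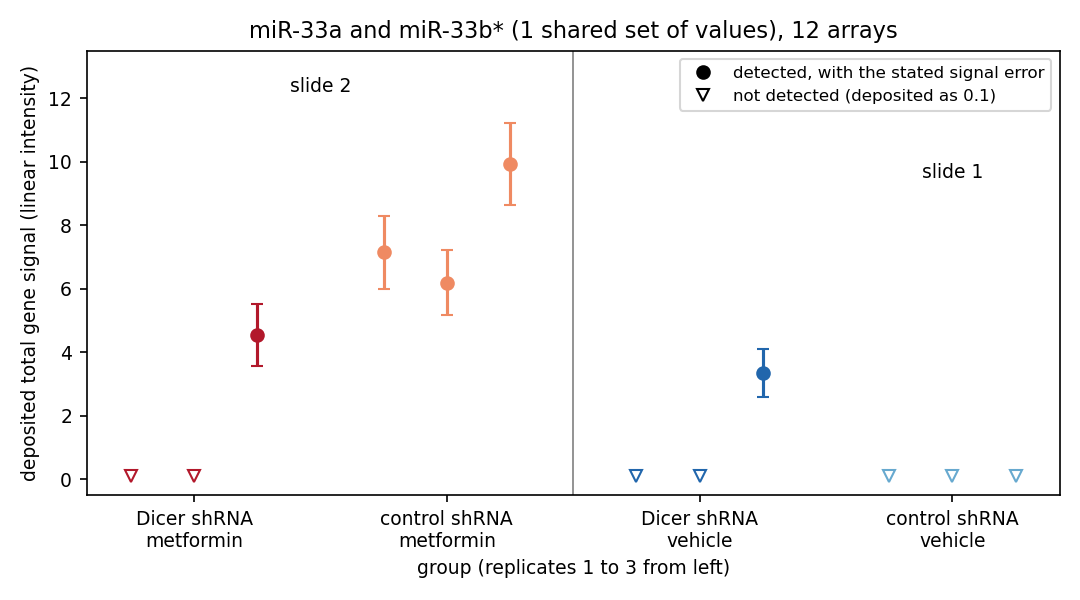
Deposited total gene signal (linear intensity, y axis) of miR-33a and miR-33b*, which share 1 set of values, on the 12 arrays, 3 replicates per group. Bars are the stated signal error and open triangles are arrays that did not detect the entry. The 3 control shRNA metformin arrays sit between 6.20 and 9.93, above the detected Dicer shRNA arrays at 4.55 and 3.35, and no control shRNA vehicle array detected it.

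These are dim signals. On the 3 control shRNA metformin arrays 14.6% to 27.6% of the detected human names were dimmer, against 7.80% on the single detecting Dicer shRNA metformin array and 7.22% on the single detecting Dicer shRNA vehicle array. The signal was 6.07 to 7.72 times its stated error in control shRNA cells with metformin, 4.67 times in Dicer shRNA cells with metformin and 4.42 times in Dicer shRNA cells with vehicle, where the lowest ratio of any detected human name was 3.00 and the median 9.56. The mean signal of control shRNA cells with metformin was 7.76 ± 1.94 (SD, n = 3), and the mean stated error of those arrays was 1.15. All metformin samples were on slide 2 and all vehicle samples on slide 1, and a metformin difference cannot be told apart from one between slides. Dicer shRNA samples occupied positions 4 to 6 of each slide and control shRNA samples positions 1 to 3, and line cannot be told apart from position. Between 130 and 204 human names were detected per array. Precision is limited by having 3 arrays in a group. In total RNA, a change in how many cells express a microRNA and a change in its level per cell cannot be told apart.

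For the comparisons the arrays were brought to a common 75th percentile of the 98 human microRNAs that every array detected, signals under a floor of 3.01 (1.59 on the log2 scale) were raised to it, and log2 was taken. On this scale the entry had 1.59, 1.59 and 2.39 in Dicer shRNA cells with metformin and 2.97, 2.82 and 3.49 in control shRNA cells with metformin. It had 1.59, 1.59 and 1.62 in Dicer shRNA cells with vehicle and 1.59 on all 3 arrays of control shRNA cells with vehicle. The single value above the floor in Dicer shRNA cells with vehicle was thus within 0.03 of it. In order of group mean, with SDs over 3 arrays, the levels were 3.09 ± 0.35 for control shRNA with metformin, 1.86 ± 0.46 for Dicer shRNA with metformin, 1.60 ± 0.02 for Dicer shRNA with vehicle and 1.59 for control shRNA with vehicle, where all arrays lay at the floor. The upper group did not overlap the next, and the 3 lower groups overlapped each other.

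Metformin was first compared with vehicle in control shRNA cells. Under the main scaling, with no vehicle array above the floor, miR-33a was at least 2.84-fold higher on the metformin arrays. The adjusted p was 9.5e-05 (limma with Benjamini-Hochberg adjustment over 208 microRNAs), and 3 of 3 arrays were higher than every vehicle array. The fitted difference was 1.50 ± 0.22 (log2, SE), and it includes the floor as the vehicle value. The entry came into the tested set only through its detection on the 3 control shRNA metformin arrays, where it is high. Its p and the lack of overlap are not free of that selection. In the same comparison 88% of the 208 tested microRNAs were called, 47.6% as higher and 40.4% as lower, and 51.4% were higher with no overlap, so a call in this direction was common on this scale. After scaling to viral probes 36 were called higher and 124 lower, against 99 and 84. The median difference over all 208 was 0.52. Detection on all 3 metformin arrays and no vehicle array was seen for 21 of 851 human names (2.47%), both names of the pair among them, and the reverse for 54 (6.35%).

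The size of this difference depended on the scaling and on the floor, while its direction did not and its call held in each limma fit that was run. It was 0.63 (adjusted p 0.000499, limma) after scaling to the probes for viral microRNAs and 0.62 with an offset of 16 added in place of the floor. It was 3.25 with the series matrix, which holds 0 for arrays without detection and 3.17, 2.98 and 3.59 for the 3 control shRNA metformin arrays. Over the 10 viral probes that every array detected the median difference was 1.38, all 10 above 0, and over the 4 control features named hur it was -3.84, all 4 below 0. The exact permutation test over the 6 arrays gave p = 0.1, two-sided, the smallest that 3 against 3 allows.

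**Figure D2:**
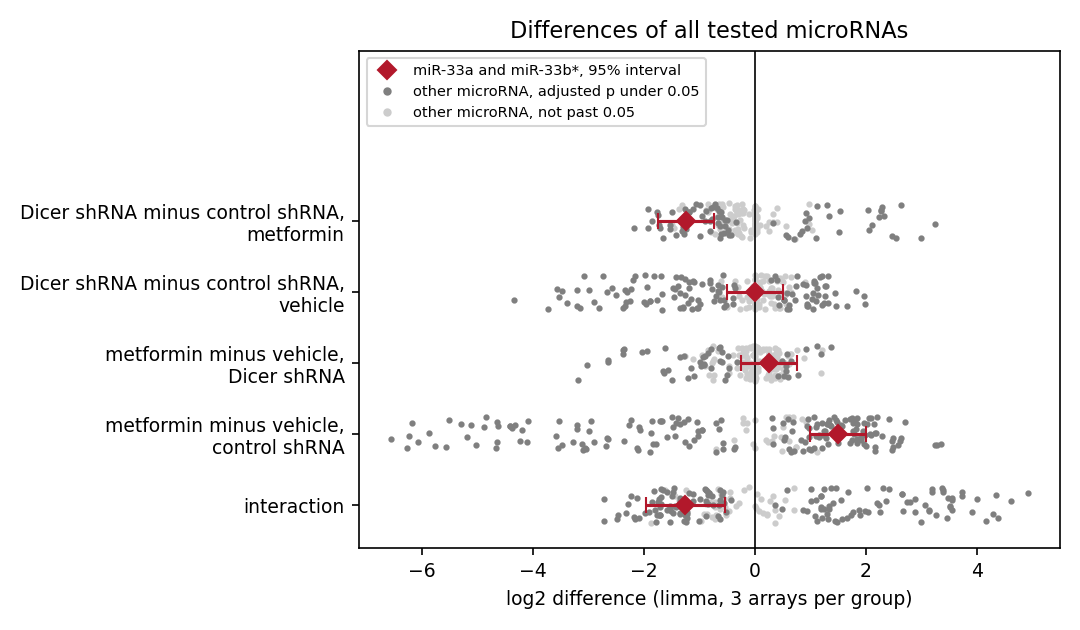
Log2 differences (x axis) of the 208 tested microRNAs in 5 comparisons, with miR-33a and miR-33b* as a diamond with its 95% interval and the others as points, dark where the adjusted p was under 0.05. The entry sits at 1.50 for metformin in control shRNA cells and at -1.24 for the knockdown under metformin, among many other called microRNAs, and its intervals include 0 in the knockdown under vehicle and in metformin in Dicer shRNA cells.

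In Dicer shRNA cells metformin and vehicle did not separate the entry. It was detected on 1 of 3 metformin arrays and on 1 of 3 vehicle arrays, replicate 3 in both cases. The difference was 0.26 ± 0.22 (95% interval -0.24 to 0.76, adjusted p 0.47, limma), with 24.5% of the 208 microRNAs called, and the floor limits it. Without replicate 3 of the metformin group it was -0.0091, so the positive value rests on that array.

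The knockdown was compared on each slide. Under metformin the entry was lower with Dicer shRNA than with control shRNA, by a difference of -1.24 ± 0.22 (95% interval -1.74 to -0.74, adjusted p 0.00128, limma), and 3 of 3 Dicer shRNA arrays lay below every control shRNA array. There 38.9% of the 208 microRNAs were called, 25% as lower and 13.9% as higher, and 39.9% were lower with no overlap. The difference was -0.55 after scaling to viral probes, -0.48 with the offset of 16 and -2.37 with the series matrix, all past the threshold, and with undetected values left at 0.1 it was -4.49 (adjusted p 0.0705, limma). The viral probes had a median difference of -0.49, 9 of 10 below 0, and the hur features one of 1.95, all 4 above 0. The exact permutation p was again 0.1, two-sided. Here too the entry was tested only because the control shRNA metformin arrays detected it, and the call is not free of that selection.

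Under vehicle the entry was at or next to the floor in both lines. The difference between Dicer shRNA and control shRNA cells was 0.01 ± 0.22 (95% interval -0.49 to 0.51, adjusted p 1, limma), with 59.6% of the 208 microRNAs called, 21.6% as higher and 38% as lower. Values under the floor have no order, so a difference between the lines below it could not be measured. In the series matrix the 3 Dicer shRNA vehicle arrays held 0, 0 and 0.788, against 0 on each control shRNA vehicle array.

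The metformin difference itself differed between the lines. The interaction, the difference in Dicer shRNA cells less that in control shRNA cells, was -1.25 ± 0.32 (95% interval -1.95 to -0.54, adjusted p 0.00521, limma), and 76.4% of the 208 microRNAs were called in it, 39.4% as lower. It was -0.61 after scaling to viral probes and -0.56 with the offset of 16, both past the threshold. Since 3 of the 4 groups lay at or near the floor, the interaction rests on the control shRNA metformin arrays. These arrays alone also brought the entry into the tested set.

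**Figure D3:**
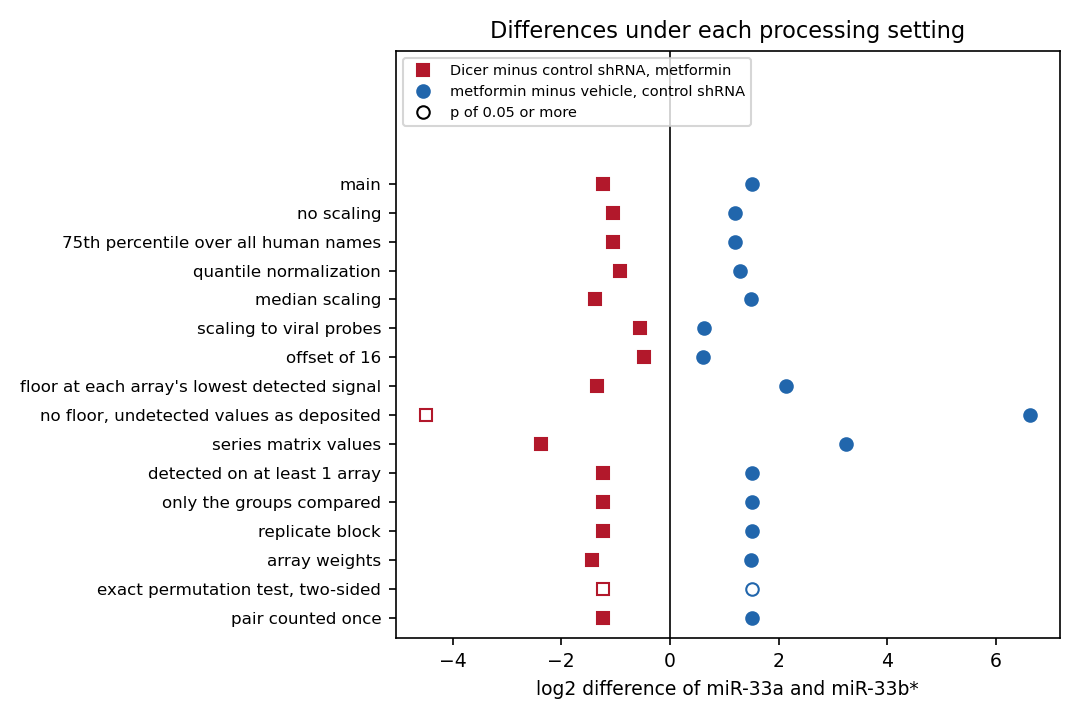
Log2 difference of miR-33a and miR-33b* (x axis) under each processing setting (y axis), squares for Dicer minus control shRNA cells under metformin and circles for metformin minus vehicle in control shRNA cells, filled where p was under 0.05. Direction is the same throughout, and the values run from -4.49 to -0.48 and from 0.62 to 6.62.

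Over the 12 arrays, 205 other tested microRNAs could be correlated with the miR-33a entry on the log2 scale, and the median Pearson r was 0.50. The 5 highest were miR-133b (0.984), miR-425* (0.972), miR-623 (0.96), miR-129-3p (0.954) and miR-602 (0.941), and 14 lay above 0.9. These points share 12 arrays, 4 groups and the floor, and the values are a description with no p. Detection was not shared by all of them, since miR-623 was detected on 3 of 3 arrays in each metformin group and in Dicer shRNA cells with vehicle, and on 1 of 3 in control shRNA cells with vehicle. miR-133b, known as a muscle microRNA, had 1.59, 1.59 and 2.34 in Dicer shRNA cells with metformin, 2.73, 2.83 and 2.93 in control shRNA cells with metformin, and was not detected on any vehicle array. miR-425*, a passenger strand, had 2.33 and 1.70 on the same single arrays of the Dicer shRNA metformin and vehicle groups on which the miR-33a entry was detected, and 3.56, 3.62 and 3.64 in control shRNA cells with metformin.

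**Figure D4:**
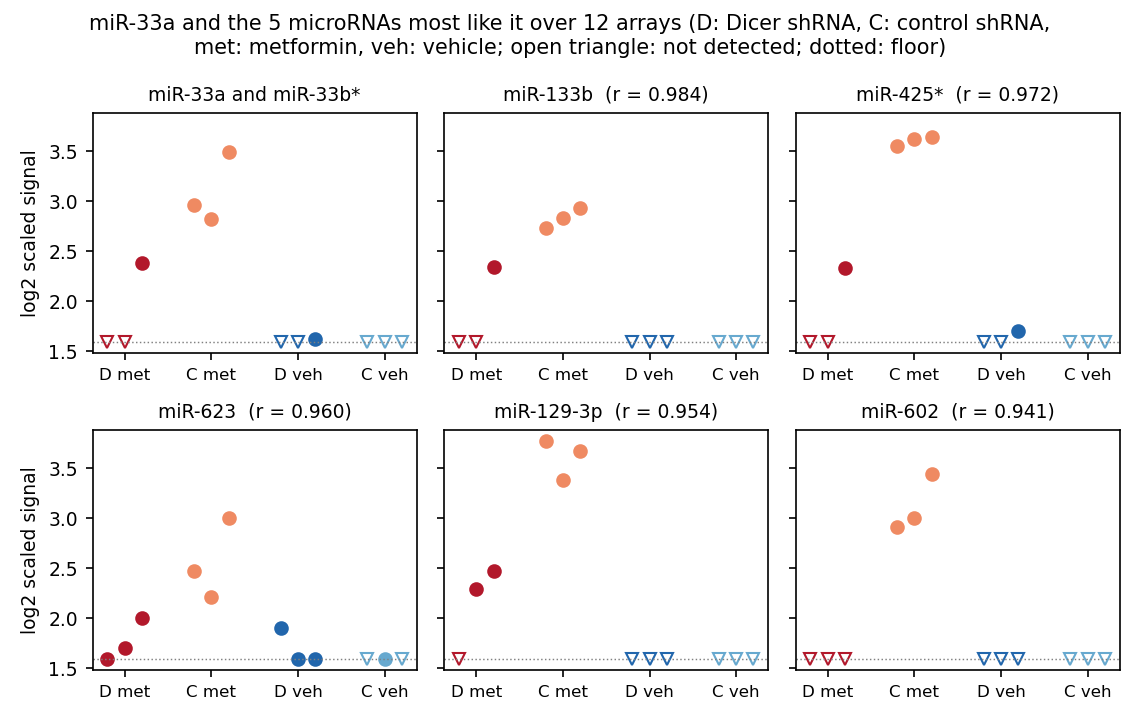
Log2 scaled signal (y axis) of miR-33a and miR-33b* and of the 5 microRNAs with the highest Pearson r with them, by group with 3 replicates each. Circles were detected, open triangles were not, and the dotted line is the floor of 1.59. In all 6 panels the control shRNA metformin arrays are highest.

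Among the 21 names detected on all control shRNA metformin arrays and on no control shRNA vehicle array, the miR-33a entry ranked 9 by its mean level there. The 3 brightest were miR-708 at 4.01 ± 0.15, miR-10b* at 3.76 ± 0.22 and miR-129-3p at 3.61 ± 0.20 (log2, SD, n = 3). On the Dicer shRNA metformin arrays, 9 of the 21 names were detected nowhere, 7 on 1, as the miR-33a entry was, 5 on 2 and 0 on all 3. On the Dicer shRNA vehicle arrays, 12 were detected nowhere, 7 on 1, again as the miR-33a entry was, and 1 each on 2 and on 3. Both names of the pair are among the 21 and, in each line of counts, among the 7. The 21 were picked by detection in control shRNA cells, so these counts only describe them.

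The miR-33a entry was set beside 10 microRNAs, itself included, that are known to target MYC mRNA, the transcript of a growth-driving transcription factor. Of these, 6 were tested, and with metformin in control shRNA cells 5 fell and the miR-33a entry alone was higher (median -2.94, against 0.52 over all 208, of which 40.4% were called lower and 47.6% higher). On the control shRNA metformin arrays let-7c went undetected and was at least 36.5-fold lower than with vehicle, and let-7a, also undetected there, was at least 25.5-fold lower. The same holds for miR-34a, a p53 target (at least 2.30-fold), and let-7g (at least 2.28-fold). miR-24, detected on all 12 arrays, fell by 5.11 ± 0.25. After quantile normalization 3 fell and the miR-33a entry was still higher. miR-34b was detected on 2 control shRNA metformin arrays and on no other array, and miR-34c-5p, miR-145 and miR-33b on none. With the knockdown under vehicle the other 5 tested members fell (3 of them after quantile normalization), beside 0.01 for the miR-33a entry and 38% of all 208 called lower. With the knockdown under metformin, let-7c and miR-24 rose (1 of them after scaling to viral probes) and the miR-33a entry fell, where 13.9% of all 208 were called higher and 25% lower, while let-7a, let-7g and miR-34a were absent from the detected names of both groups. These last 3 came into the tested set only through the control shRNA vehicle arrays, where they are high. Their falls with metformin in control shRNA cells and with the knockdown under vehicle are not free of that selection. The miR-33a entry came in only through the control shRNA metformin arrays, so the contrast between it and them is not free of it either.

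Of 22 microRNAs known for lipid and sterol metabolism, itself included, 12 were tested. With metformin in control shRNA cells 10 fell, and miR-370, a repressor of fatty acid oxidation, and the miR-33a entry were higher (median -2.04), where 40.4% of all 208 were called lower and 47.6% higher. With metformin miR-27a was at least 72.2-fold lower, the bounds for the next in size were 39.1-fold for miR-27b, 32.4-fold for miR-26a, 25.0-fold for miR-106b and 18.4-fold for miR-103, all lower, and the other 4 bounds in the list ran from 1.93-fold to 7.95-fold lower. After quantile normalization 6 fell. The fitted difference of miR-370, which 2 of the 3 vehicle arrays detected, was 3.35 ± 0.24. miR-96, miR-182 and miR-183, a cluster induced by the SREBF2 protein, and miR-758 and miR-144, further repressors of ABCA1, were detected on 0 of 12 arrays. In the MYC list 5 of the 6 and in the lipid list 10 of the 12 were at the floor in either control shRNA group. The lowest detected scaled signal of every control shRNA array (1.58 to 2.21) lay under the floor, so the bounds equal the floor. Setting these members to their bounds could therefore not change the medians of -2.94 and -2.04. With the knockdown under vehicle 9 of the 12 fell (6 after quantile normalization) and miR-370 rose, where 38% of all 208 were called lower and 21.6% higher. With the knockdown under metformin miR-370 and the miR-33a entry fell and 0 rose, where 25% of all 208 were called lower and 13.9% higher. There 1 rose without scaling, after quantile normalization and after scaling to viral probes, and after the last of these the miR-33a entry alone fell. miR-106b, miR-103 and the 4 members with the smaller bounds came into the tested set only through the control shRNA vehicle arrays, where they are high. miR-27a, miR-27b and miR-26a came in only through vehicle arrays of both lines. Their falls with metformin in control shRNA cells are not free of that selection. For miR-106b, miR-103 and those 4 the same holds for the knockdown under vehicle.

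Markers of other cell types were checked because miR-133b varied with the entry. Of 4 muscle microRNAs, miR-1 and miR-206 were detected on no array and miR-133a on 10 arrays. With metformin miR-133a was higher in control shRNA cells (2.49, adjusted p 2.8e-05, limma, 47.6% of all 208 called higher). It was also higher in Dicer shRNA cells (1.37, adjusted p 0.010, limma, 13 of all 208 called higher). The difference in Dicer shRNA cells was not called after scaling to viral probes. The summed scaled signal of the muscle list was 7.74 to 21.1 in Dicer shRNA cells with metformin and 24.9 to 29.9 in control shRNA cells with metformin. It was 0 to 6.52 in Dicer shRNA cells with vehicle and 0 to 4.41 in control shRNA cells with vehicle. Of 3 erythroid microRNAs, miR-486-5p alone was detected, with miR-451 and miR-144 on no array, and the sum was 8.23 to 10.9 in control shRNA cells with metformin and 0 elsewhere. Of 4 leukocyte microRNAs, miR-223 alone was detected, at 4.30 to 9.63 in control shRNA cells with metformin and 0 elsewhere. Liver miR-122 was detected on no array. The 5 microRNAs listed for basal and mesenchymal-like breast lines (miR-221, miR-222, miR-100, miR-125b and miR-29a) were detected in every group. They were called in every comparison, also in those in which the entry was not, where 24.5% to 88% of all 208 were called. Their summed scaled signal was 222 to 309 in Dicer shRNA cells with metformin, 29.7 to 58.6 in control shRNA cells with metformin, 502 to 585 in Dicer shRNA cells with vehicle and 1206 to 1286 in control shRNA cells with vehicle. All 5 fell with metformin in control shRNA cells (median -4.64, 40.4% of all 208 called lower). All 5 rose with the knockdown under metformin (median 2.55, 13.9% of all 208 called higher). Both held under each of the 4 other scalings as well (limma). All 5 also fell with the knockdown under vehicle (median -1.18, 38% of all 208 called lower). The same held for metformin in Dicer shRNA cells (median -0.99, 24.5% of all 208 called, 13 higher and 38 lower). After quantile normalization 2 of the 5 were called lower with the knockdown under vehicle, and 3 with metformin in Dicer shRNA cells. Of 6 epithelial microRNAs only miR-205 was detected, and it fell by 2.36 ± 0.13 with metformin in control shRNA cells (adjusted p 3.82e-08, limma, 40.4% of all 208 called lower). With the knockdown under vehicle its difference was -2.33 ± 0.13 (adjusted p 1.29e-07, limma, 38% called lower). It was also called lower with the knockdown under metformin (-0.43, 25% called lower) and with metformin in Dicer shRNA cells (-0.46, 38 of all 208 called lower). Neither of these was called after quantile normalization. The one under metformin was also not called without scaling or after scaling to viral probes. The part of these signals in the miR-33a result was not tested.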

How the data were processed

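Total RNA of 12 SUM159 samples was labelled with Cy3, 1 sample per Agilent array. The labelling kit given in the labels' protocols amplifies mRNA into cRNA, which is not a microRNA labelling method, so how these signals were labelled is open to doubt. In the deposited array files each name has a total gene signal (a linear intensity, 0.1 where not detected), its stated error and a detection flag. The software was Agilent Feature Extraction, version 9.1 in the submitters' processing notes, with background settings not given in the sources. The authors' series matrix has log2 values for 221 microRNAs in the same direction as the array signal, with unknown normalization and centring. Groups were taken from the titles, because for the metformin samples the source names contradict titles and characteristics.

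Scaling factors were 0.869 to 1.20, from the 75th percentile of the 98 human microRNAs that every array detected. The floor is the 5th percentile of detected signals, as a median of the 12 arrays. limma 3.58.1 (R 4.3.3) fitted 4 group means to the 208 microRNAs that at least 1 group detected on its 3 arrays, with 8 residual degrees of freedom. p-values were adjusted over all 208, and an adjusted p under 0.05 is a call. A group at the floor adds no spread, which understates errors. At-least folds compare the bright group's mean with the floor or, where higher, the lowest detected signal of each dim array. They hold for the main scaling only. The sample titles do not say whether equal replicate numbers pair the samples, and the main fit left them unpaired. Deviations correlated over 0.1 in 7 of 18 same-numbered pairs of arrays, and differently numbered pairs reached such values too, so this count does not settle it. Tables and figures used Python 3.11.15, numpy 2.4.6, pandas 2.3.3 and matplotlib 3.10.9.

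The text names both members and the other arms of their hairpins, the 5 microRNAs with the highest Pearson r, the 3 brightest names with the same detection pattern in control shRNA cells, the tested MYC-targeting microRNAs and up to 6 of the lipid list by size of change. Members and lists were chosen with earlier results of these data known.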

Additional observations from a re-analysis of the deposited data

Results flagged for a closer look

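The metformin difference of miR-33a and miR-33b* was different in the 2 lines by a test of the difference itself. The interaction, Dicer shRNA less control shRNA, was -1.25 ± 0.32 on the log2 scale (adjusted p 0.00521, limma, 3 arrays per group), from a difference of 0.26 in Dicer shRNA cells and of 1.50 in control shRNA cells. It was called together with 76.4% of the 208 microRNAs tested. The entry came into the tested set only through control shRNA with metformin, and the other groups lay at or near the floor. The call was close to the threshold after quantile normalization (adjusted p 0.0457, limma) and with undetected values as deposited (adjusted p 0.042, limma). Groups of 3 were not tested for single arrays that stand apart.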

How the results depend on the processing

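Leaving out each array in turn kept the calls for metformin in control shRNA cells (1.30 to 1.64), the knockdown under metformin (-1.50 to -1.04) and the interaction (-1.51 to -1.05). For metformin in Dicer shRNA cells these values ran from -0.0091 to 0.39, with no call, and the value below 0 came without replicate 3 of Dicer shRNA with metformin, the only array of its group with a signal. The call of the knockdown under metformin was lost with undetected values as deposited (-4.49). The exact permutation test cannot pass 0.05 at this size (p 0.1 for -1.24 and for 1.50). No other alternative changed a call of the entry. The replicate block left the value at 1.50 for metformin in control shRNA cells (adjusted p 7.79e-05, limma) and at -1.24 for the knockdown under metformin (adjusted p 0.00091, limma), and of 12 arrays 3 correlated best with one of their own number. With the pair counted once, an alternative chosen after seeing the data, the values were the same. The 75th percentile over all human names fell on undetected names on 12 of 12 arrays, so that alternative equals no scaling.

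The background counts moved more. For the knockdown under metformin 81 calls became 129 after median scaling, 51 after viral scaling and 126 with array weights. For metformin in Dicer shRNA cells 51 became 24 with undetected values as deposited, 19 in a fit of the groups compared, 82 with array weights and 32 without replicate 3 of Dicer shRNA with metformin. The split of higher and lower calls was 45 and 79 for the knockdown under vehicle, but 61 and 53 after quantile, 32 and 90 after median and 14 and 119 after viral scaling. It was 29 and 52 for the knockdown under metformin, but 23 and 106 after median and 36 and 15 after viral scaling. It was 13 and 38 for metformin in Dicer shRNA cells, but 6 and 44 without scaling, 33 and 25 after quantile and 7 and 42 after viral scaling. It was 99 and 84 for metformin in control shRNA cells and 77 and 82 for the interaction, but 36 and 124, and 115 and 20, after viral scaling. The causes were not tested. The dim signal of the entry limits its own values in the paragraph before, not these counts.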
